A study of Homo sapiens with 8 samples.

Results

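IFRD1, PTP4A1 and SLC35A4 are mRNAs that the study named as resistant to sodium arsenite, and each belongs to a family whose other members are also expressed in the same cells. The genes described here are the IFRD family (IFRD1 and IFRD2), the PTP4A family (PTP4A1, PTP4A2 and PTP4A3) and the A branch of the SLC35 family (SLC35A1 to SLC35A5), chosen by gene symbol, which makes 10 of the 19964 genes with a coding transcript. Each gene was represented by the coding transcript with the most ribo-seq reads over both control libraries. HEK293T cells, an established human embryonic kidney line carrying the SV40 large T antigen, were given 40 µM sodium arsenite or vehicle (control) and were harvested after 30 min. Ribosome-protected fragments (ribo-seq) and polyA-selected mRNA of the same lysates (mRNA-seq) were sequenced in 2 independent biological replicates, which gave 8 libraries. The labels name no genetic change in either group. All dishes were washed with cycloheximide, which stalls elongating ribosomes, and footprints were taken from 80S fractions of sucrose gradients.

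Arsenite leads to phosphorylation of eIF2, the factor that brings initiator tRNA to the ribosome, and this lowers initiation on most mRNAs. Some mRNAs escape because short open reading frames in the 5′ leader (uORFs) take up scanning ribosomes in unstressed cells and let more of them pass to the main coding sequence (CDS) when eIF2 is limiting. Paralogs encode related proteins but have leaders of their own, so reads on the leader and on the CDS can be compared within a family. IFRD1 is a transcriptional co-regulator, and IFRD2 is its relative known to bind translationally inactive ribosomes. PTP4A1, PTP4A2 and PTP4A3 are the PRL phosphatases, small prenylated tyrosine phosphatases. SLC35A1, SLC35A2 and SLC35A3 carry CMP-sialic acid, UDP-galactose and UDP-N-acetylglucosamine into the Golgi, whereas SLC35A4 and SLC35A5 are less well characterised members of that transporter family.

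The beginnings of the transcripts are shown for some of the genes on which ribosomes could meet an ATG soon after the cap. RefSeq start windows (GRCh38.p14) were found for 9 of the 10 genes, several genes having more than 1 start, and the first 50 transcribed bases were searched for ATG on the transcribed strand. An ATG lay in 40.2% of all 35116 windows, so its presence is common. Runs of 30 bases around an ATG are given 5′ to 3′ with the ATG in capitals.
IFRD1, chr7:112450473-112450502, plus strand: cgctagagagaaacATGtatcgttttcgat
PTP4A1, chr6:63521762-63521791, plus strand: tgtctggtatccttATGcagaatgaactga
SLC35A4, chr5:140564830-140564859, plus strand: gttcggcggggaagATGgcggatgacaagg
SLC35A1, chr6:87472990-87473019, plus strand: gctgtcggggaaccATGgctgccccgagag
In SLC35A4 this ATG began 17 bases into the transcript and another began at base 24, overlapping no letter of the former. The ATG shown began at base 28 for IFRD1 and 31 for SLC35A1. Neither of the 2 start windows of PTP4A2 held an ATG in these bases. The windows of PTP4A1, IFRD1, SLC35A3 and SLC35A5 differed, with ATG in some and not in others. Each window of SLC35A2 held an ATG, so an early ATG was not particular to the resistant genes. The ATG shown for IFRD1 and the bases after it also stand in the primer with which the study placed a sequence directly before the IFRD1 uORF, which makes it the start of that uORF. For the other genes, whether an ATG opens a uORF or the CDS was not determined, nor was which window belongs to the transcript counted. The study reported several AUG codons in the SLC35A4 leader. The early ATGs of SLC35A4 thus lie before its CDS if this window is that of the transcript counted.

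On the chosen transcripts, the control ribo-seq libraries held 1901259 (replicate 1) and 7272485 (replicate 2) reads, those of arsenite held 1024156 and 3044928, and mRNA-seq libraries held 3996050 to 21733327. Replicate 1 was thus several times shallower than replicate 2. Over all genes the leader took 0.436% and 0.852% of leader plus CDS ribo-seq reads in control and 0.528% and 1.61% in arsenite, so replicates differed in this share as well as conditions. VIM, LIN28B, NEFL, NEFM, KRT8 and KRT18, which HEK293 cells express, were present in all 4 mRNA-seq libraries, CD3E of T cells had 0 reads, and ALB and PTPRC of liver and blood cells stayed at or below 0.776 RPM (reads divided by the effective library size in units of 1e6 reads). PAX2, checked as a further gene of the HEK293 lineage, was low, at 1.54 to 3.88 RPM with 6 to 71 reads. PECAM1 of endothelium reached 1.03 RPM, and COL1A1 of fibroblasts was present at 9.5 to 12.9 RPM with 44 to 266 reads, and its part in the results was not tested.

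The 3 resistant genes had more CDS ribo-seq reads under arsenite relative to the bulk of mRNAs. None of the 6 paralogs tested passed in that direction, where 1.16% of all 10284 genes did. With so few genes tested, the absence of such a call does not set the paralogs apart from other genes. Levels are given as reads, or as RPM after scaling with TMM factors, which set changes relative to most mRNAs. A decrease shared by all mRNAs therefore does not appear in these values. The study scaled replicate 2 to a spike-in and found a strong general drop in translation. Within that drop it described IFRD1 and PTP4A1 as slightly reduced and SLC35A4 as increased. The folds given here for IFRD1 and PTP4A1 are thus relative to most mRNAs and are no absolute increase. Because the resistant genes were named from changes between these libraries, their arsenite values are a description and carry no p-value. Their control CDS reads enter the same changes, so their control values are a description as well. In libraries made from a whole culture, a change in every cell and a change in some of the cells cannot be told apart, nor can fewer cells and less RNA per cell. The plot of levels by library shows all 10 genes.

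**Figure D1:**
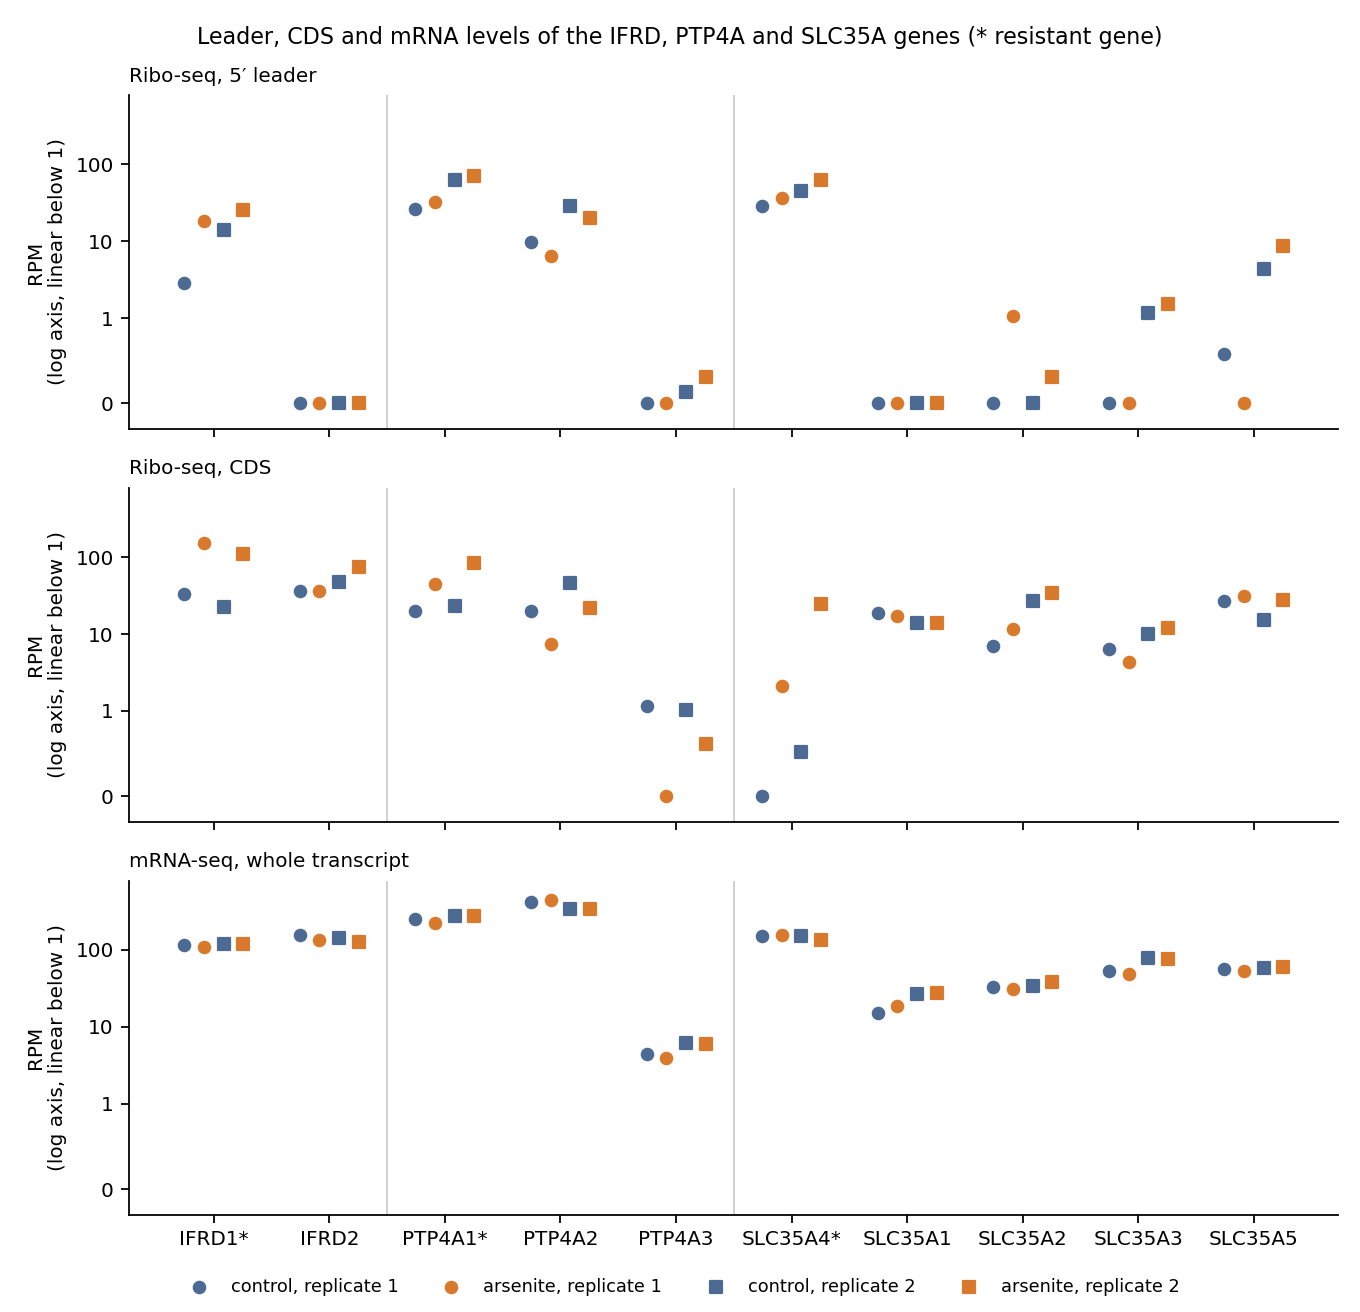
Levels in RPM (log axis, linear below 1) on the 5′ leader and the CDS in ribo-seq and on the whole transcript in mRNA-seq, 1 point per library for each of the 10 genes, with circles for replicate 1 and squares for replicate 2. CDS points of IFRD1, PTP4A1 and SLC35A4 lie higher in arsenite than in control in both replicates, while the mRNA-seq points of each gene stay close together.

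IFRD1 had 57 and 171 CDS reads in control (replicates 1 and 2) and 142 and 354 in arsenite, in libraries that were shallower in arsenite. This corresponded to 33.0 and 22.3 RPM in control and 151 and 109 in arsenite, with no overlap between the conditions. The fold within replicate 1 was 4.59 with a 95% counting interval of 3.35 to 6.36, and within replicate 2 it was 4.88 (4.05 to 5.89). Leader reads were 5 and 106 in control and 17 and 83 in arsenite. Scaled to depth, the leader of IFRD1 also held more reads in arsenite, by 6.27-fold (2.22 to 21.7) in replicate 1 and 1.85-fold (1.37 to 2.48) in replicate 2. The mRNA-seq reads were 458 and 2414 in control and 418 and 2640 in arsenite, which gave folds of 0.919 and 0.984.

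IFRD2 had 62 and 364 CDS reads in control and 34 and 246 in arsenite, or 35.9 and 47.4 against 36.2 and 75.5 RPM. The conditions overlapped, since arsenite replicate 1 lay between the controls. Its fold was 1.01 (0.645 to 1.56) in replicate 1 and 1.59 (1.35 to 1.88) in replicate 2. No ribo-seq read fell on the IFRD2 leader in any library, but the mRNA-seq libraries also had only 0 to 2 reads there, so the occupancy of this leader was not measurable. The IFRD2 occupancy change was 0.44 ± 0.24 on the log2 scale (SE, edgeR adjusted p = 0.348).

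PTP4A1 had 34 and 176 CDS reads in control and 42 and 270 in arsenite, or 19.7 and 22.9 against 44.8 and 82.8 RPM. Both arsenite libraries lay above both controls. The fold was 2.28 (1.41 to 3.69) in replicate 1 and 3.62 (2.98 to 4.40) in replicate 2. Leader reads of PTP4A1 outnumbered its CDS reads in control, with 46 and 482, and were 30 and 230 in arsenite. After scaling, the leader levels were 26.6 and 62.7 RPM in control and 32.0 and 70.6 in arsenite, folds of 1.20 (0.733 to 1.95) and 1.12 (0.957 to 1.32) whose intervals include 1. Its mRNA-seq folds were 0.896 and 1.00.

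PTP4A2 moved the other way. It had 34 and 352 CDS reads in control and 7 and 70 in arsenite, or 19.7 and 45.8 against 7.46 and 21.5 RPM. Each arsenite library lay below the control of its own replicate, but the higher arsenite value exceeded the lower control value. The fold was 0.379 (0.142 to 0.870) in replicate 1 and 0.469 (0.357 to 0.607) in replicate 2. Of the 6 paralogs tested for ribosome occupancy, PTP4A2 alone passed the threshold, with a log2 change of −1.16 ± 0.29 (SE, edgeR adjusted p = 0.0393), where 2.15% of all 10284 genes passed in either direction and 0.992% passed as lower in arsenite. This call and that on its TE needed the pairing of libraries by replicate (edgeR adjusted p = 1.00 in both without the replicate block). The same held for all other genes, since no gene passed any of the tests without that block. Leader reads of PTP4A2 were 17 and 221 in control and 6 and 66 in arsenite, folds of 0.651 (0.210 to 1.73) and 0.704 (0.526 to 0.931). Its mRNA-seq reads were 1663 and 6776 in control and 1744 and 7705 in arsenite, folds of 1.06 and 1.02.

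PTP4A3 was too weakly expressed for its translation to be described. It had 17 and 125 mRNA-seq reads in control and 15 and 132 in arsenite, and at most 8 CDS ribo-seq reads in any library. It did not reach the minimum mean of 10 counts in ribo-seq and was tested for its RNA level only.

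SLC35A4 had almost all of its control ribo-seq reads on the leader. There were 50 and 347 leader reads in control and 34 and 201 in arsenite, whereas its CDS had 0 and 4 in control and 2 and 81 in arsenite. Its CDS level in arsenite replicate 2 was 24.9 RPM against 0.521 in its control, a fold of 47.7 whose interval ran from 17.9 to 179 because it rests on 4 control reads. With 0 and 2 reads, replicate 1 gave no fold. After scaling, leader levels in arsenite were 1.25 times (0.786 to 1.98) and 1.37 times (1.14 to 1.63) those of control, the former with an interval that includes 1. Its mRNA-seq reads were 595 and 3014 in control and 603 and 2995 in arsenite, folds of 1.02 and 0.894.

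None of the 4 other SLC35A genes passed the test of ribosome occupancy, where 2.15% of all 10284 genes passed in either direction. SLC35A1 had 32 and 106 CDS reads in control and 16 and 45 in arsenite, folds of 0.922 (0.472 to 1.73) and 1.00 (0.690 to 1.43). SLC35A2 had 12 and 208 against 11 and 112, folds of 1.69 (0.675 to 4.18) and 1.27 (1.00 to 1.60). SLC35A3 had 11 and 78 against 4 and 39, folds of 0.670 (0.156 to 2.26) and 1.18 (0.781 to 1.75). The intervals of these 3 transporters all include 1, and for SLC35A3 replicates pointed in opposite directions. SLC35A5 had 46 and 118 against 29 and 90, folds of 1.16 (0.704 to 1.89) and 1.80 (1.35 to 2.39), and its occupancy change was 0.60 ± 0.28 (SE, edgeR adjusted p = 0.268). SLC35A1 and SLC35A2 had between 0 and 1 leader ribo-seq reads per library, with at most 9 and 17 leader mRNA-seq reads, so nothing can be read from their leaders.

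**Figure D2:**
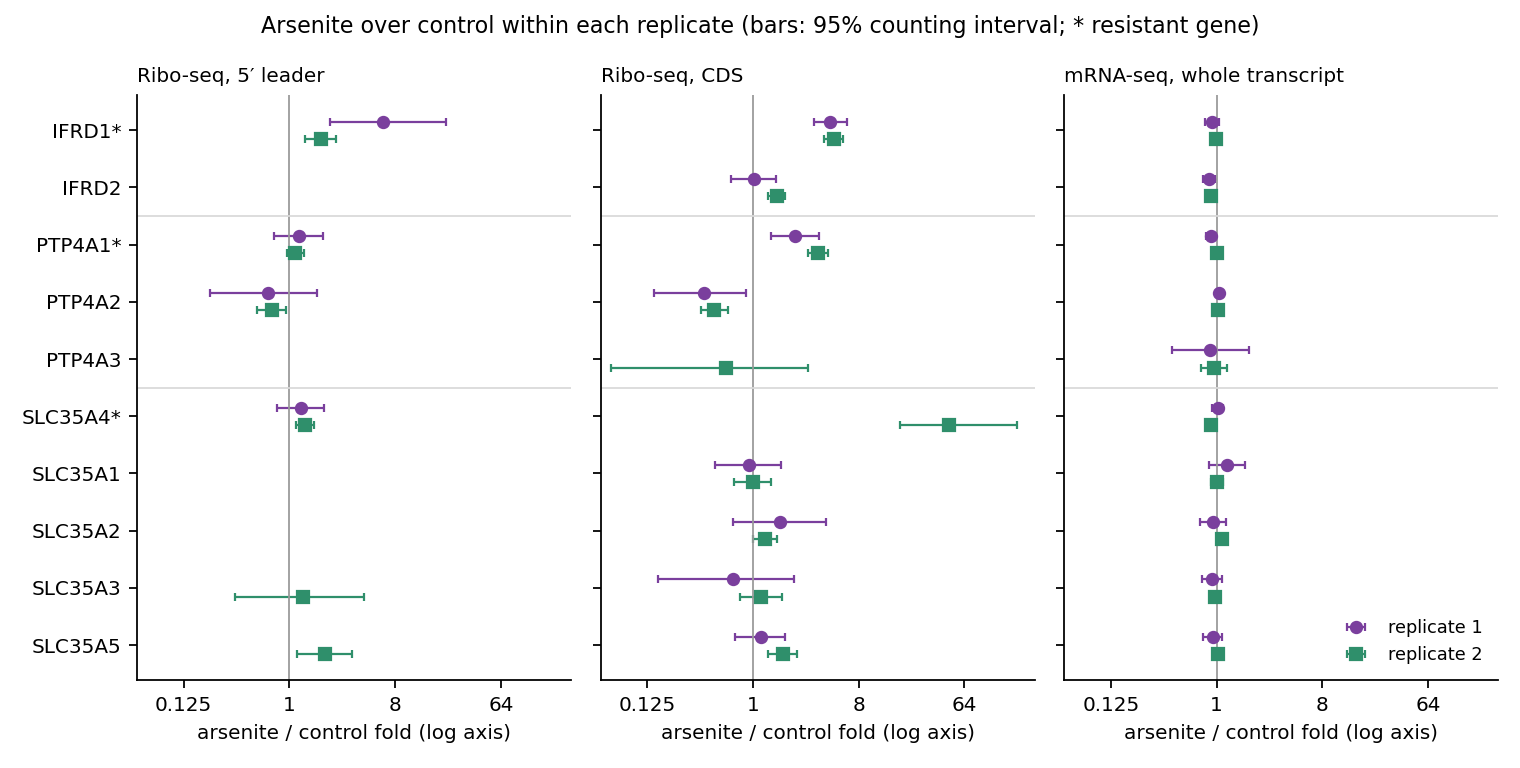
Arsenite over control folds (log axis) within each replicate for leader and CDS ribo-seq and for whole-transcript mRNA-seq, after TMM scaling, with bars for the 95% counting interval. CDS folds of the resistant genes IFRD1 (4.59 and 4.88), PTP4A1 (2.28 and 3.62) and SLC35A4 (47.7, replicate 2 only) stand to the right of 1 and those of PTP4A2 to the left, while mRNA-seq folds lie near 1. No point is drawn where the 2 libraries together had too few reads.

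At the RNA level none of the 7 paralogs passed the test, where 5.25% of 12600 genes did, 3.75% as higher and 1.49% as lower in arsenite. The log2 changes of all 10 genes lay between −0.16 and 0.10. The largest in size was that of IFRD2, which had 612 and 2861 mRNA-seq reads in control and 529 and 2870 in arsenite and changed by −0.16 ± 0.06 (SE, edgeR adjusted p = 0.0635). It was lower in both replicates, and it passed the threshold under 3 of the alternative settings, with adjusted p of 0.0315 to 0.0448. SLC35A1 had 59 and 544 reads without and 72 and 613 with arsenite, SLC35A2 had 129 and 690 against 119 and 852, SLC35A3 had 206 and 1599 against 187 and 1730, and SLC35A5 had 221 and 1171 against 203 and 1331. For these 4 transporters the fold in each replicate lay between 0.914 and 1.23.

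Translation efficiency (TE) is the ribo-seq level of the CDS relative to the mRNA-seq level. The study named the resistant genes on their TE change in these libraries. TE also shares its CDS reads with occupancy, so it gives no separate support. Its log2 change was 2.33 for IFRD1, 1.77 for PTP4A1 and 5.64 for SLC35A4, the last depending on the prior count because of the 4 control reads. Among the 6 paralogs tested, PTP4A2 passed as lower with −1.19 ± 0.20 (SE, edgeR adjusted p = 0.0322) and none passed as higher, where 1.01% of 10266 genes passed as lower, 0.994% as higher and 2.01% in either direction. IFRD2 had 0.69 ± 0.20 (SE, edgeR adjusted p = 0.0908) and SLC35A5 had 0.68 ± 0.22 (SE, edgeR adjusted p = 0.123), positive in both replicates but not past the threshold. SLC35A1, SLC35A2 and SLC35A3 had changes of −0.09 ± 0.25, 0.30 ± 0.21 and 0.21 ± 0.28. A p-value that misses the threshold with 2 replicates does not show that a paralog was unaffected.

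Ranked from the highest TE change among the 10266 genes, IFRD1 stood 62nd in replicate 1 and 7th in replicate 2, PTP4A1 341st and 12th, and SLC35A4 18th and 1st. These genes were named on TE change, so their high places restate that choice. The place of SLC35A4 in replicate 1 rests on 2 reads. IFRD2 stood at 3521 and 375, SLC35A5 at 2864 and 397, SLC35A2 at 966 and 3149, SLC35A3 at 7535 and 2523, and SLC35A1 at 7442 and 5104. PTP4A2 was near the other end in both replicates, at 9867 and 10121. The places of IFRD2, SLC35A2, SLC35A3 and SLC35A5 differed strongly between replicates, whose depth also differed.

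The share of a gene's leader plus CDS ribo-seq reads that lay on the leader was lower under arsenite in PTP4A1 and SLC35A4 and was not lower in PTP4A2. In PTP4A1 the share was 57.5% (95% Wilson interval 46.6 to 67.7) and 73.3% (69.7 to 76.5) in control and 41.7% (31.0 to 53.2) and 46.0% (41.7 to 50.4) in arsenite. Both arsenite values lay below both controls, but the intervals overlapped in replicate 1. In SLC35A4 it was 100% (92.9 to 100) and 98.9% (97.1 to 99.6) in control and 94.4% (81.9 to 98.5) and 71.3% (65.7 to 76.2) in arsenite, and in replicate 1 the intervals overlapped. In PTP4A2 it was 33.3% (22.0 to 47.0) and 38.6% (34.7 to 42.6) in control and 46.2% (23.2 to 70.9) and 48.5% (40.3 to 56.9) in arsenite, higher in both replicates with overlapping intervals. These intervals cover counting error only, since reads without molecular identifiers are not independent molecules.

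IFRD1 gave different pictures in the 2 replicates. Its leader share was 38.3% (32.7 to 44.1) in control and 19.0% (15.6 to 22.9) in arsenite in replicate 2, but 8.06% (3.49 to 17.5) and 10.7% (6.78 to 16.5) in replicate 1, where the control leader had 5 reads. In SLC35A5 the share in replicate 2 was 21.9% (16.0 to 29.1) in control and 23.7% in arsenite, and in replicate 1 it was 2.13% (0.377 to 11.1) and 0%, where 0 of 29 reads allow a share of up to 10.3%. In SLC35A3 it was 10.3% (5.54 to 18.5) and 11.4% (4.95 to 24.0) in replicate 2. In replicate 1 no read of SLC35A3 was on the leader, with 11 and 4 reads in all.

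**Figure D3:**
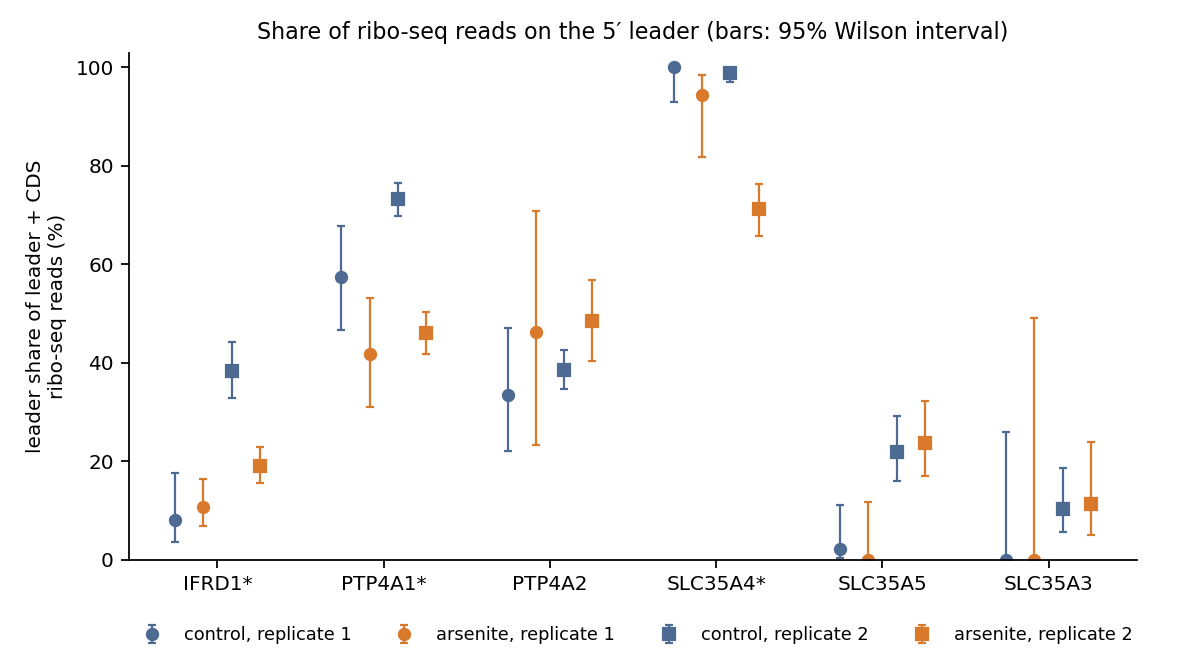
Leader share of leader plus CDS ribo-seq reads (percent) in each library for the 6 genes with 9 or more leader reads in a library, with 95% Wilson intervals. The share is lower in arsenite in both replicates of PTP4A1 and SLC35A4, lower in replicate 2 alone for IFRD1, and not lower in PTP4A2.

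The change of leader reads relative to CDS reads was fitted where leader and CDS each reached a mean of 10 counts, which left 688 genes and 5 of the 10 described. The log2 leader to CDS shift was −1.40 for PTP4A1, −5.05 for SLC35A4 and −0.88 for IFRD1, negative meaning fewer leader reads per CDS read in arsenite. For IFRD1 it was 0.39 in replicate 1 alone and −1.40 in replicate 2 alone. PTP4A2 had 0.63 ± 0.53 (SE, edgeR adjusted p = 0.469) and SLC35A5 0.02 ± 0.61 (SE, edgeR adjusted p = 0.988), so neither of the 2 paralogs tested passed, where 0.145% of the 688 genes did. That 1 gene was SLC35A4, which was named on CDS reads that also enter this test, so its call is no separate support. Neither PTP4A1 nor IFRD1 was called, so missing the threshold does not set the paralogs apart. For SLC35A5 the shift was 0.14 in replicate 2 alone, while replicate 1 had only 1 and 0 leader reads.

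In control cells, without arsenite, the CDS was weakly translated in more genes of these families than the resistant ones. Because length and mappability of a region cancel in its own TE, TE can be set side by side between genes. On the log2 scale the mean control TE of the CDS was −1.47 for IFRD1 and −1.52 for IFRD2, at percentiles 4.05 and 3.74 of 10253 genes, so these paralogs were nearly alike. It was −1.21 for PTP4A1 and −1.15 for PTP4A2, at percentiles 6.08 and 6.74. SLC35A4 was the lowest of all 10253 genes, at a value that depends on the prior count. SLC35A3 (8.10) and SLC35A5 (14.95) were also low in percentile, whereas SLC35A2 (39.3) and SLC35A1 (51.8) were nearer the middle.

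Within the PTP4A family, the control CDS TE (scaled ribo-seq over scaled mRNA-seq level) was 0.353 and 0.522 for PTP4A1 and 0.279 and 0.720 for PTP4A2 (replicates 1 and 2), so these genes differed by less than the replicates did. Under arsenite it was 0.805 and 1.81 for PTP4A1 and 0.0975 and 0.333 for PTP4A2, without overlap between the genes. Within the IFRD family it was 0.421 and 0.306 for IFRD1 and 0.267 and 0.454 for IFRD2 in control, and 2.18 and 1.60 against 0.320 and 0.795 in arsenite. For SLC35A4 it was 0.0102 in control replicate 2 and at most 0.0549 in control replicate 1, the limit set by 0 reads, and 0.0539 and 0.534 in arsenite. In arsenite replicate 2 the SLC35A4 value was thus close to the control values of SLC35A3 (0.467 and 0.499) and of SLC35A5 (0.700 and 0.606).

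The leader of PTP4A1 was more densely occupied in control than that of PTP4A2. The leader TE was 0.298 and 1.34 for PTP4A1 and 0.0743 and 0.303 for PTP4A2, higher for PTP4A1 in each replicate. Set over the CDS TE of the same library, it was 0.846 and 2.57 for PTP4A1 and 0.266 and 0.420 for PTP4A2, without overlap. For SLC35A4 this ratio was at least 8.51 in replicate 1 and 104 in replicate 2, whereas for SLC35A5 it was 0.119 and 1.78. The leader TE itself was 0.467 and 1.06 for SLC35A4 and 0.0834 and 1.08 for SLC35A5, so in replicate 2 these leaders were alike and the genes differed on the CDS. For IFRD1 the ratio of leader TE to CDS TE was 0.418 and 4.66, values that differed widely between replicates. Under arsenite this ratio was 0.537 and 0.810 for PTP4A1, 0.517 and 0.638 for PTP4A2, 0.528 and 1.79 for IFRD1 and 12.3 and 2.96 for SLC35A4, the former resting on 2 CDS reads and not below the bound of its control. The PTP4A ratios, apart in control, were thus closer to each other in arsenite. In replicate 1 the arsenite ratio of PTP4A2 rests on 6 leader and 7 CDS reads. The CDS reads of PTP4A1 are values on which it was named.

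Ranked from the highest ratio of leader TE to CDS TE in control, SLC35A4 was 1st of 688 genes, PTP4A1 45th, IFRD1 47th, SLC35A5 144th and PTP4A2 216th. The median gene had a log2 ratio of −2.61, which is below all 5. By leader TE alone SLC35A4 was 76th, PTP4A1 97th, IFRD1 135th, SLC35A5 237th and PTP4A2 459th. The ratio of IFRD1 in this ranking is a mean of 2 replicates that differed, as given above. A low control CDS level raises the leader TE to CDS TE ratio and also the TE change on which the resistant genes were named. Their places in this ranking are thus not independent of that choice.

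**Figure D4:**
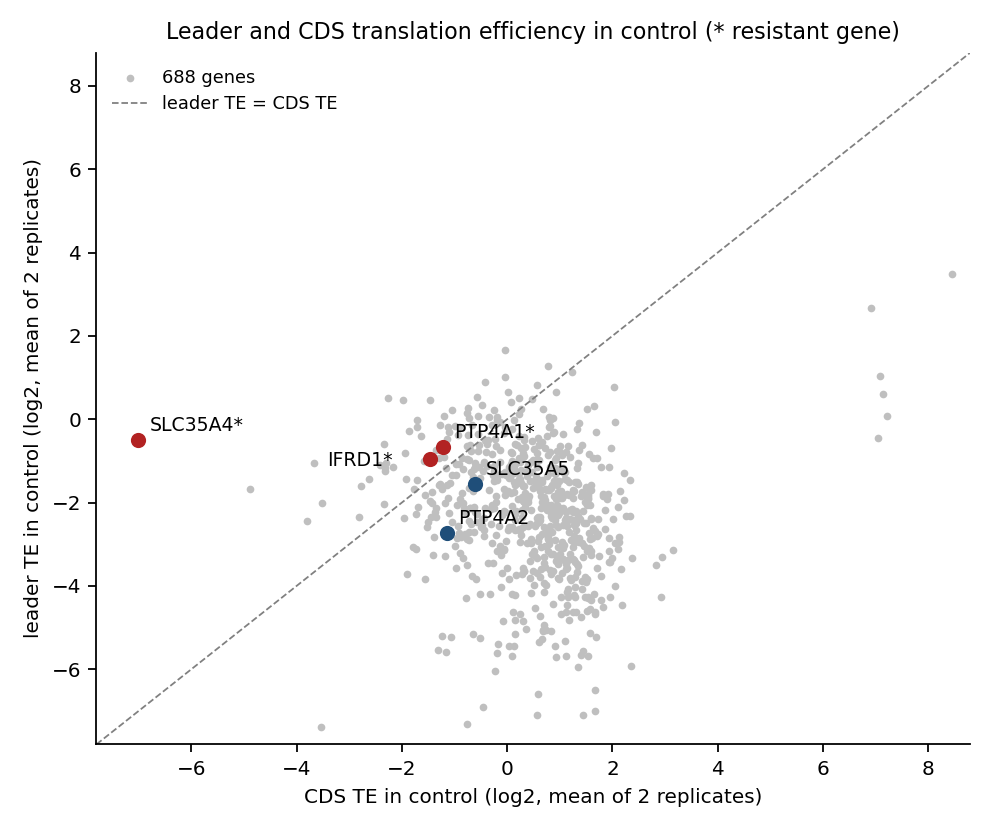
Control leader TE against control CDS TE (both log2, mean of 2 replicates) for the 688 genes that reached a mean of 10 counts on leader and CDS, with 5 of the described genes labelled. SLC35A4 lies far to the left of all other genes, PTP4A1 and IFRD1 lie above the line of equal leader and CDS TE, and SLC35A5 and PTP4A2 lie below it. These sides hold for the mean only. The ratio of leader TE to CDS TE was 0.846 for PTP4A1 and 0.418 for IFRD1 in replicate 1, and 1.78 for SLC35A5 in replicate 2.

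Choosing transcripts by CDS ribo-seq reads or by mRNA-seq reads gave the same leader and CDS reads for all 10 genes, so those rules do not test the leader shares. PTP4A1, SLC35A4, SLC35A5 and IFRD2 had 1 coding transcript each, and PTP4A2, SLC35A2 and SLC35A3 had 3. IFRD1 had 4, whose CDS reads were the same or nearly so (57 in control replicate 1 for all, and 157 to 171 in control replicate 2), but whose leader reads differed. The transcript used, NM_001550, had 5 and 106 leader reads in control and NM_001007245 had 4 and 96, whereas NM_001197079 and NM_001197080 had 0 and 13. In replicate 2 the IFRD1 leader share was thus 36.0% in control and 15.3% in arsenite on NM_001007245 and 7.65% and 2.64% on NM_001197079, lower in arsenite on each but at levels that depend on the transcript. In PTP4A2 the leader had 10 and 163 control reads on the other transcripts against 17 and 221 on NM_080391, and in replicate 2 the share on NM_001195100 was 33.2% in control and 35.6% in arsenite. Reads shared by transcripts of a gene are counted for each of them, so leader reads cannot be split among the transcripts. RefSeq lists 7 pseudogenes of PTP4A1 and 2 of PTP4A2, none of them counted as a gene of its own, and how far reads shared with such copies bear on the PTP4A counts was not tested.

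The genes whose changes were most like those of each resistant gene were found by distance over 6 log2 changes (leader, CDS and mRNA-seq in each of 2 replicates) among the 688 genes. These distances describe all 4 ribo-seq libraries at once and include the values on which the resistant genes were named. Of the near genes given below, the study also named ATF4, ATF5, C19orf48, UCP2 and PPP1R15B as resistant. It named SMCR7L, as MIEF1, a candidate. Those genes were picked from these same libraries, so their closeness is no separate support. Nearest to PTP4A1 were ZNF672 at 0.646, PPP1R15B at 0.766 and SMCR7L at 0.910, against a median of 2.81. PPP1R15B encodes a subunit that directs phosphatase to eIF2, and SMCR7L is an older symbol of MIEF1, a mitochondrial outer membrane protein. PPP1R15B had 101 and 358 CDS reads in control and 110 and 391 in arsenite, SMCR7L 57 and 301 against 63 and 249, and ZNF672 5 and 46 against 8 and 55.

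Nearest to IFRD1 was ATF5, a transcription factor of the stress response, at 0.963, followed by UCP2 at 1.82 and TSC22D3 at 1.84, against a median of 4.09. ATF5 had 4 and 25 CDS reads in control and 12 and 76 in arsenite, and its leader had 0 and 41 against 1 and 21. TSC22D3 had 106 and 1053 CDS reads against 153 and 756, and its leader had 0 and 34 against 1 and 37. The replicate 1 leader change of both genes thus rests on 1 read and on the prior count. On the CDS the log2 changes of TSC22D3 were 1.41 and 0.759, below those of IFRD1 (2.19 and 2.28). Nearest to SLC35A4 were C19orf48 at 3.17, ATF4 at 3.72 and ATF5 at 3.98, with IFRD1 and PTP4A1 in the places after them, against a median of 6.85. No gene came as close to SLC35A4 as the nearest genes of the other resistant mRNAs did to theirs. C19orf48 had 4 and 18 CDS reads in control and 9 and 56 in arsenite. ATF4, the stress transcription factor under uORF control, had 543 and 1511 CDS reads in control and 912 and 4198 in arsenite. Not all resistant genes were close to each other: from IFRD1, PTP4A1 was 25th and SLC35A4 363rd, and from PTP4A1, IFRD1 was 289th and SLC35A4 630th. PTP4A2 was at places 610, 598 and 663 of 688 from IFRD1, PTP4A1 and SLC35A4, which from PTP4A1 is nearer than SLC35A4.

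In the wider families at most 1 gene of a list passed each test. Of 26 gene symbols listed for further SLC35 transporters, some of which can be older names of the same gene, 25 were in the files. None of the 16 tested for ribosome occupancy or TE passed (2.15% and 2.01% over all genes), with median log2 changes of 0.03 and 0.05 beside −0.0034 and −0.01 over all genes. Of the 20 tested at the RNA level, 1 passed as lower, where 1.49% of all genes did. SLC35G1 had 76 and 640 mRNA-seq reads in control and 54 and 590 in arsenite, a change of −0.30 ± 0.09 (SE, edgeR adjusted p = 0.0406). Of 36 dual-specificity and related phosphatases, to which the PTP4A enzymes are related, none of the 18 tested for occupancy passed (2.15% over all genes), and their median log2 change was −0.15.

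Of 31 phosphatases tested at the RNA level, 1 passed as higher, where 3.75% of all genes did. DUSP1, an immediate early gene whose product inactivates MAP kinases, had 63 and 388 mRNA-seq reads in control and 108 and 779 in arsenite, a log2 change of 0.84 ± 0.10 (SE, edgeR adjusted p = 4.33e-11). Of 18 tested for TE, 1 passed as higher, where 0.994% of all genes did, and the median was −0.12. RNGTT, the enzyme that starts mRNA capping, had 116 and 399 CDS ribo-seq reads in control and 113 and 253 in arsenite, and its TE change was 0.74 ± 0.16 (SE, edgeR adjusted p = 0.0471). No phosphatase of this list passed as lower in TE.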

How the data were processed

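The deposited values are raw counts of reads per RefSeq transcript, made by the authors. Adapters were removed with Cutadapt, reads of a spike-in RNA and of rRNA were set aside, and the rest were aligned to RefSeq transcripts with Bowtie 1.0.0. Reads mapping to more than 1 gene were discarded, which lowers counts of genes with close copies. The 2 sequencing runs of replicate 2 were added together. Coding transcripts (35851 of 47087) have counts for leader, CDS and 3′ UTR.

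Counts were tested with edgeR 4.0.16 (R 4.3.3) by the quasi-likelihood test with TMM scaling, Benjamini-Hochberg adjustment and a threshold of 0.05, on all genes whose mean reached 10 counts. The RNA level test used whole-transcript mRNA-seq counts, occupancy used CDS ribo-seq counts, TE change was the assay by treatment interaction, and the leader to CDS shift the region by treatment interaction. The replicate was a block, since the study computed changes within replicates, which differed in adapter and sequencing. Deviations of control and arsenite libraries of the same number from their group means correlated at 0.704 (ribo-seq, 10284 genes) and 0.727 (mRNA-seq, 12600 genes). A prior count of 0.5 was added for log2 changes of 1 replicate. Folds within a replicate have exact binomial intervals of the read counts, and no fold is given where a library had 0 reads or neither had more than 3. Upper limits at 0 stand for 3 reads. All tests were checked on simulated data. Named genes were all 10 members, the called genes of the 2 lists whose replicates had equal sign (up to 5 per direction), and the 3 nearest genes of each resistant mRNA. The members and lists were chosen with earlier results of these data known. The replicates' spread rests on 2 samples per group. Alternatives were DESeq2 1.42.0, upper-quartile scaling, other filters, other regions, other transcripts, no block and each replicate left out.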

Additional observations from a re-analysis of the deposited data

Results flagged for a closer look

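Ribo-seq reads on the 3′ UTR, a region that none of the comparisons used, made up 1.18% of the reads of the 10 genes in arsenite replicate 2 (23 of 1947 reads, 95% Wilson interval 0.788 to 1.77), against 0.607% in its control (17 of 2801 reads, 0.379 to 0.970). This was a signal outside the main measurement that stood above the control, with intervals that overlap. In replicate 1 the share was 0.531% in arsenite (2 of 377 reads) and 0% in control, where 0 of 409 reads allow a share of up to 0.733%. Over all genes the share was 0.807% in arsenite and 0.259% in control in replicate 2, and 0.233% and 0.137% in replicate 1, so the 3′ UTR reads of the 10 genes moved with those of all genes.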

How the results depend on the processing

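The number of genes past the threshold depended on the settings, and the cause was not tested. For the RNA level (661 genes), DESeq2 called 101 (with no adjusted p for 11237 genes), and counting mRNA-seq over the CDS gave 359. For ribosome occupancy (221 genes), the calls were 374 with upper-quartile scaling, 54 with DESeq2, 541 without a filter, 577 with a mean of at least 50 counts and 387 over the whole transcript. For TE (206 genes), they were 89 with DESeq2, 433 without a filter, 132 with a mean of at least 50 counts and 93 when mRNA-seq was counted over the CDS. For the leader to CDS shift (1 gene), 11 were called with the transcript of most CDS reads and 3 with a mean of at least 5 leader counts.

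Without the replicate block, edgeR called 0 genes in each of the 4 tests, with 28, 148, 150 and 2 genes at an unadjusted p under 0.05. PTP4A2 was then no longer past the threshold, with log2 changes of −1.11 in occupancy and −1.15 in TE (edgeR adjusted p of 1.00 in both), and its adjusted p lay between 0.00452 and 0.0393 in occupancy and between 0.0143 and 0.0426 in TE under the other settings, DESeq2 giving none for its occupancy. Of 237 refits of the 10 genes, 218 were counted as unchanged. For the paralogs this meant the same call and sign. Calls of the resistant genes were not compared, and no gene kept a call without the block. Values of the resistant genes were compared by size, and the uncalled RNA change of PTP4A1 changed sign (0.02 when counted over the CDS). Among the paralogs, PTP4A2 lost the call in 2 and the RNA level of IFRD2 gained it in 3. SLC35A5, near 0 and not called, changed sign in 7: its RNA change of 0.00056 became −0.015 with upper-quartile scaling, −0.0071 without a filter, −0.034 without the block, −0.0052 with the transcript of most CDS reads, −0.0070 with a mean of at least 50 counts and −0.054 over the CDS, and its shift of 0.02 became −0.16 with DESeq2. In 7 refits values of the resistant genes moved by more than the spread between replicates. Over the whole transcript, leader included, the occupancy changes were 2.02 for IFRD1, 0.78 for PTP4A1 and 0.73 for SLC35A4, against 2.25, 1.63 and 5.49 on the CDS. With either replicate left out no test could be made, and the TE change ran from 1.34 to 1.84 for PTP4A1, 2.30 to 2.32 for IFRD1 and −1.46 to −1.12 for PTP4A2. In replicate 1 the CDS of SLC35A4 and the leaders of SLC35A5, SLC35A3 and IFRD1 had few reads.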
